A study of Mus musculus with 12 samples.

Results

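The genes described here are 10 mouse genes through which tumour cells can restrain immune cells: Cd274, Pdcd1lg2, Cd276, Cd47, Pvr, Nt5e, Lgals1, Lgals3, Lgals9 and Ptgs2. They were chosen by name, and 9 of the 10 matched a row among the 14852 genes with expression values. Nt5e, which encodes the adenosine-producing enzyme CD73, matched no row, so its RNA level was not analysed here. A second table of 19049 RNA regions enriched for N4-acetylcytidine (ac4C) held 15 regions on 7 of these genes. The label of surface genes holds in part, since galectins are secreted or intracellular as well as bound to the cell surface, and Ptgs2 encodes an enzyme of internal membranes.

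The study used ID8 cells, a mouse ovarian cancer line that arose from ovarian surface epithelium in culture, and asked how ac4C, a modification written on RNA by the enzyme NAT10, relates to mRNA regulation under cisplatin. Cisplatin is a platinum drug that crosslinks DNA. The 12 libraries form 4 groups of 3: control cells and cisplatin-treated cells, each with an input library (total RNA) and a library precipitated with an antibody to ac4C (IP). The sources used here give no dose or treatment time, both groups are of this 1 cell line, and no label says whether the replicates of a group are separate cultures. The p-values below therefore cover only variation among these libraries, which may be technical.

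Checkpoint ligands on a tumour cell bind inhibitory receptors on T cells, natural killer cells or macrophages. PD-L1 (Cd274) and PD-L2 (Pdcd1lg2) engage PD-1 on T cells, CD47 engages SIRPα on macrophages, and CD155 (Pvr) engages the inhibitory receptor TIGIT as well as the activating receptor DNAM-1. Soluble routes work beside them: cyclooxygenase-2 (Ptgs2) feeds prostaglandin E2 synthesis, and galectins crosslink glycans on immune cell receptors.

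Promoter letters are shown for Cd274 and Pdcd1lg2, neighbours on chromosome 19 that were both near 0 in control cells, and for Ptgs2, the member with the smallest standard error. The sequences lie just upstream of the RefSeq start site on GRCm38.p6, plus strand, and capitals mark a match to the GC box (GGGCGG). They are chr19:29367293-29367437 for Cd274, shortened to 145 bases to leave out the span of Plgrkt, chr19:29410669-29410918 for Pdcd1lg2 and chr1:150099781-150100030 for Ptgs2. The Cd274 start used here, 29367438, lies inside the RefSeq span of the gene, which begins at 29362107, so a start further upstream is not covered.
Cd274: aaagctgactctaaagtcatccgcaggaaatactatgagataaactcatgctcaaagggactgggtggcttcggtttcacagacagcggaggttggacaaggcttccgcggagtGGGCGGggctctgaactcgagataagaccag
Pdcd1lg2: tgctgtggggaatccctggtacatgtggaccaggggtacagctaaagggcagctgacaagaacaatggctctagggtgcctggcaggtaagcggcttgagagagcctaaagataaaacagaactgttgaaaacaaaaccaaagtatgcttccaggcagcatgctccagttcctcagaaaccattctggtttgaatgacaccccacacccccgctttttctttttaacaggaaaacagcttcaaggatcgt
Ptgs2: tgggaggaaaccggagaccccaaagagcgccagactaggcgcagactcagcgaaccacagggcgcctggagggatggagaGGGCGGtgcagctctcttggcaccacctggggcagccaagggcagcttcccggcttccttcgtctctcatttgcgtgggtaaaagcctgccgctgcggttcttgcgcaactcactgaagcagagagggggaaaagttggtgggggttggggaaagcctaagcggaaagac
The GC box lay 31 to 26 bases before the Cd274 start and 170 to 165 bases before the Ptgs2 start. The Pdcd1lg2 window held none of the 7 motifs searched.

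The motifs were searched on both strands in the 250 bases before the start of the 8 members that the RefSeq promoter table holds (all but Pvr and Lgals1). The GC box was found in the windows of Cd274, Ptgs2, Cd276 (3 matches), Cd47 (2), Nt5e (4) and Lgals3 (1), and in 32.7% of all 32851 windows. The CRE core TGACGT was found once, in Cd47 (6.47% of all windows), and the interferon-stimulated response element (ISRE) once, in Lgals9 (2.98%). The AP-1 site TGANTCA (6.75%), the GAS element TTCNNNGAA (7.02%), the NF-kB site (0.356%) and the TATA box TATAAA (12.4%) were in none of the 8 windows. The motifs can overlap one another, a match is a description of letters, and a missing match says only that those letters are not in this window.

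Over the input libraries, 7 of the 10 genes were higher after cisplatin, Cd47 was lower, Cd276 did not pass the test and Nt5e was not analysed here. A gene was called at a Benjamini-Hochberg adjusted p of at most 0.05 in limma, run on log2(FPKM + 1), where FPKM is fragments per kilobase of gene, scaled for library size, and a fold on this scale understates the change of low genes. These counts stand against a wide background: 81.3% of the 11449 genes tested were called, 40.1% higher and 41.1% lower, with a median log2 change of -0.003. The share of the members called, 8 of the 9 with values, is near that background. The median log2 change of the 9 was 0.92, but Cd274 and Pdcd1lg2 passed the filter (at least 1 FPKM in 3 libraries) only through the cisplatin group, so they had to differ. The FPKM values of the control and cisplatin libraries did not overlap for 8 of the 9 genes, and for 84.2% of all genes tested. In bulk RNA of this kind, more cells expressing a gene and more RNA per cell cannot be told apart.

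**Figure D1:**
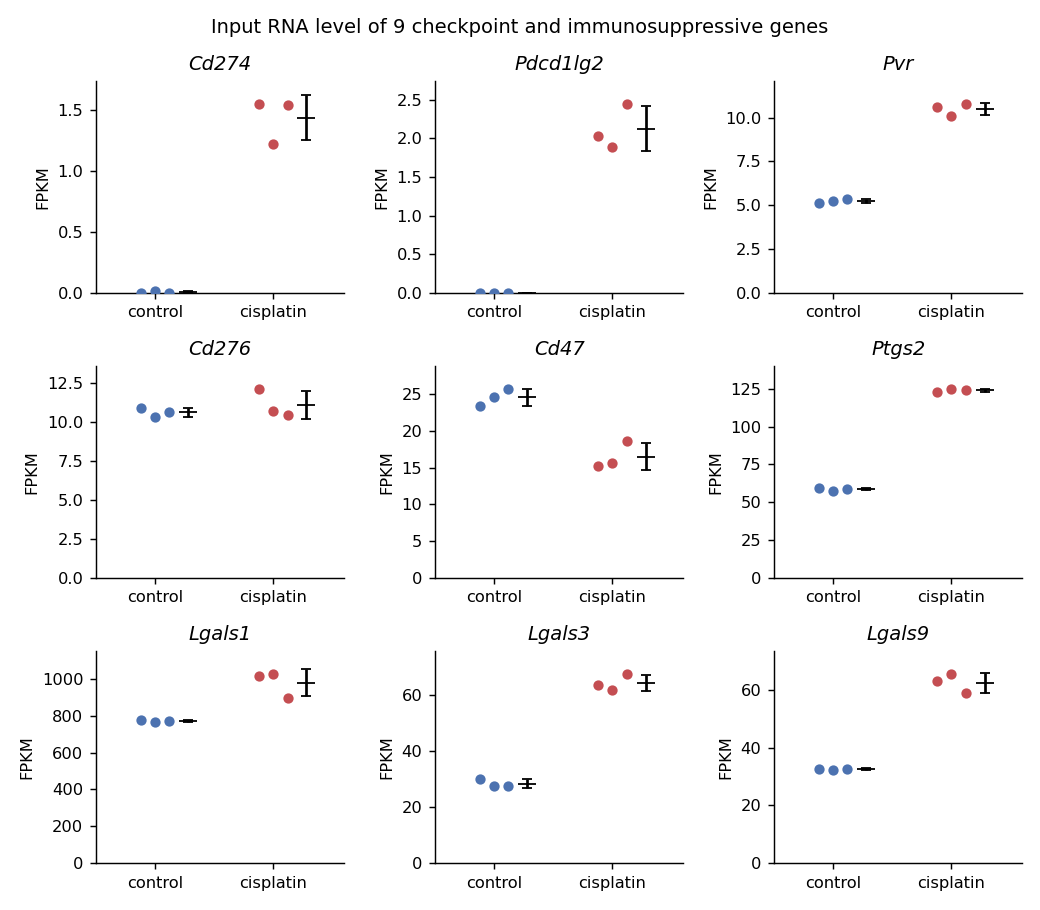
FPKM of 9 genes in the 3 control and 3 cisplatin input libraries; points are libraries, the black mark beside them is the mean with its SD, and each panel has its own axis from 0. Cisplatin libraries lie above control in 7 panels and below in the Cd47 panel, and the groups overlap for Cd276.

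The libraries held 20134902 to 21336306 fragments in listed genes in control and 21752961 to 29687163 in cisplatin, as recovered from the FPKM steps. Over all tested genes, Pearson's r of log2(FPKM + 1) was 0.9954 to 0.9963 between control libraries, 0.9894 to 0.9948 between cisplatin libraries and 0.8331 to 0.8472 between treatments. Of 12 ovarian surface and mesothelial markers, 11 had values, led by the keratin genes Krt8 and Krt19, and Epcam matched no row. Their summed level, which rests mostly on the most abundant genes, was 2497 to 2539 FPKM in control and 3598 to 3995 in cisplatin. Of the 10 tested, 6 were higher and 3 lower, beside 40.1% and 41.1% of all genes tested. Wt1, named after its values were seen, fell from 45.1 ± 1.08 to 12.4 ± 0.598 FPKM (SD, n = 3). Of 16 leukocyte markers, 2 had values, Cd68 and Cd14, and their sum was 2.25 to 2.60 FPKM in control and 8.14 to 9.97 in cisplatin. Ptprc, which marks all leukocytes, matched no row, nor did the 13 others. Of 5 endothelial markers only Tek had values, 0.723 to 0.931 FPKM in control and 2.55 to 2.81 in cisplatin. The part of these markers in the results below was not tested.

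Cd274 (ENSMUSG00000016496, chromosome 19, 29362107 to 29388095 on GRCm38.p6) encodes PD-L1, the ligand that silences T cells through PD-1. Its level was 0, 0.0121 and 0 FPKM in control replicates 1, 2 and 3, and 1.55, 1.22 and 1.54 FPKM in cisplatin replicates 1, 2 and 3. All 3 cisplatin libraries were higher than every control library, and the control level rested on a single fragment in replicate 2. Cisplatin libraries held 136, 135 and 123 fragments, so 394 against 1 in all, a ratio of 327 per fragment sequenced (exact 95% interval 58.4 to 12949.6, counting error only). Cd274 passed the filter on low values only through cisplatin and so had to differ, and no limma p is given. On the log2(FPKM + 1) scale the change was 1.28 ± 0.0713 (SE, n = 3 against 3). This value depends on the pseudocount: it was 3.88 with a pseudocount of 0.1 and 7.24 with limma's voom on the recovered fragments, and the authors' deposited table gives 8.34 (adjusted p = 1.73e-11).

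Pdcd1lg2 (ENSMUSG00000016498, chromosome 19, 29410919 to 29472927) encodes PD-L2, the other PD-1 ligand, which is usually found on myeloid cells. Each control library had it listed at 0, while cisplatin replicates 1, 2 and 3 gave 2.03, 1.89 and 2.45 FPKM, so the groups did not overlap. The cisplatin libraries held 81, 95 and 89 fragments. With 3 counts over the control group as the limit that a count of 0 allows, the level was at least 73.3-fold higher. Pdcd1lg2 also passed the filter only through cisplatin and so had to differ, and no limma p is given. The log2(FPKM + 1) change was 1.64 ± 0.0777 (SE, n = 3 against 3), against 8.73 (adjusted p = 3.54e-12) in the authors' deposited table, a fitted value that is no bound.

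The pattern of Cd274 and Pdcd1lg2, near 0 in one treatment and detected in the other, was found in both directions among all genes. Of 11830 protein-coding genes with values, 114 (0.964%) had at most 3 fragments over the control libraries and at least 1 FPKM in each cisplatin library, and 116 (0.981%) showed the reverse. Among the 114, the median cisplatin level was 1.94 FPKM. The cisplatin mean of 88 of them was above the 1.44 FPKM of Cd274, and that of 50 was above the 2.12 FPKM of Pdcd1lg2. Whether reads were assigned to such genes differently in the processing of the treatments was not tested.

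The genes around the PD-1 ligands differed in direction. Jak2, a kinase of cytokine signalling that lies before Cd274, went from 20.4 ± 0.576 to 30.7 ± 2.74 FPKM (SD, n = 3) and rose by 0.57 on the log2 scale (limma adjusted p = 9.56e-05). Insl6, a relaxin-family gene, had 1.63, 1.11 and 1.31 FPKM in control and 0 in every cisplatin library, from 32 and 0 fragments, so it passed the filter through control alone. Ermp1, beyond Pdcd1lg2, went from 3.78 ± 0.0573 to 1.34 ± 0.567 FPKM (log2 change -1.06, limma adjusted p = 0.000421), and Ric1 from 6.03 ± 0.0966 to 5.13 ± 0.380 FPKM (log2 change -0.20, limma adjusted p = 0.0171, and 0.0606 without control replicate 2). The noncoding A930007I19Rik was under the filter, at 0.431 ± 0.0896 and 0.171 ± 0.103 FPKM.

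Plgrkt, a plasminogen receptor gene whose RefSeq span shares 5186 bp with that of Cd274, stood at 4.53, 4.00 and 4.52 FPKM in control and 4.33, 3.63 and 3.95 FPKM in cisplatin. Its groups overlapped and its log2 change was -0.11 (limma adjusted p = 0.215), or -0.19 with each library scaled to a common FPKM sum (limma adjusted p = 0.0442). No source used here states the strand setting of the counting, so reads from the shared stretch cannot be told apart. Cd274 and Pdcd1lg2 are separated by 22823 bp.

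**Figure D2:**
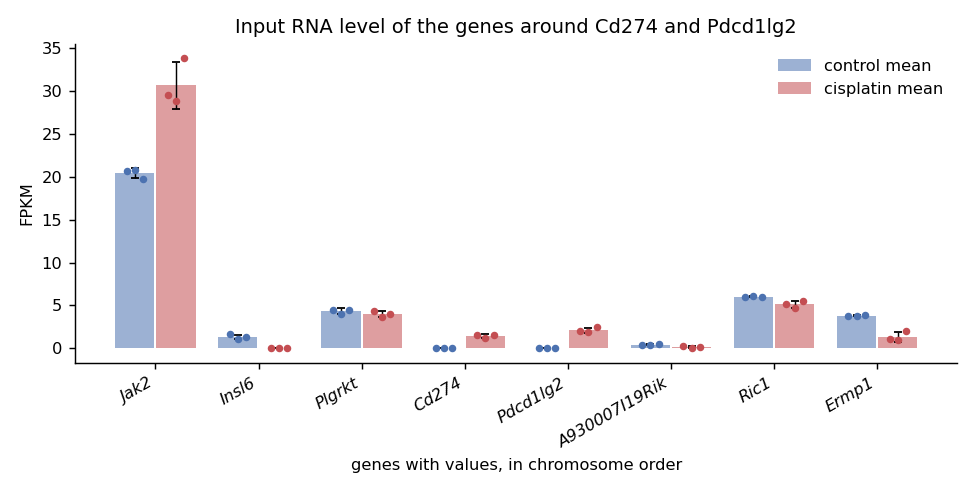
FPKM of the genes with values around Cd274 and Pdcd1lg2 in chromosome order; bars are means of 3 input libraries, error bars SD and points libraries. Jak2, Cd274 and Pdcd1lg2 were higher after cisplatin, Insl6, Ric1 and Ermp1 lower, and Plgrkt overlapped between treatments.

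Pvr (ENSMUSG00000040511, chromosome 7, 19903578 to 19921143) encodes CD155, a nectin-like adhesion protein that natural killer and T cells read through TIGIT, CD96 and DNAM-1. It stood at 5.11, 5.21 and 5.35 FPKM in control replicates 1, 2 and 3, and at 10.6, 10.1 and 10.8 FPKM in cisplatin replicates 1, 2 and 3. Every cisplatin library was higher than every control library. The mean rose 2.01-fold, from 5.22 ± 0.123 to 10.5 ± 0.338 FPKM (SD, n = 3), a log2 change of 0.89 ± 0.0465 (SE, limma adjusted p = 1.88e-06).

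Cd47 (ENSMUSG00000055447, chromosome 16, 49851328 to 49912503) encodes the signal that keeps macrophages from engulfing a cell. It stood at 23.3, 24.6 and 25.7 FPKM in control replicates 1, 2 and 3, and at 15.2, 15.6 and 18.6 FPKM in cisplatin replicates 1, 2 and 3. All cisplatin libraries were lower than all control libraries, with the third cisplatin library closest to control. The control mean of 24.5 ± 1.18 FPKM was 1.49-fold the cisplatin mean of 16.5 ± 1.86 FPKM (SD, n = 3), a log2 change of -0.55 ± 0.0778 (SE, limma adjusted p = 0.000365). Cd47 was the only one of the 9 genes called lower.

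Cd276 (ENSMUSG00000035914, chromosome 9, 58524300 to 58555033) encodes B7-H3, a B7-family protein common on solid tumours. It stood at 10.9, 10.3 and 10.6 FPKM in control replicates 1, 2 and 3, and at 12.1, 10.7 and 10.4 FPKM in cisplatin replicates 1, 2 and 3. The groups overlapped, and the first cisplatin library was the highest of the 6. The log2 change was 0.05 ± 0.0593 (SE, n = 3 against 3, limma adjusted p = 0.426), and it was -0.0050 (limma adjusted p = 0.929) without cisplatin replicate 1. The authors' deposited table gives 0.06 (adjusted p = 0.522).

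Ptgs2 (ENSMUSG00000032487, chromosome 1, 150100031 to 150108234) encodes cyclooxygenase-2, the inducible enzyme that starts prostaglandin synthesis. It stood at 59.3, 57.7 and 58.8 FPKM in control replicates 1, 2 and 3, and at 123, 125 and 124 FPKM in cisplatin replicates 1, 2 and 3. Both groups were narrow and did not overlap, with a coefficient of variation of 1.35% in control and 0.539% in cisplatin. The mean rose 2.12-fold, from 58.6 ± 0.791 to 124 ± 0.668 FPKM, a log2 change of 1.07 ± 0.0271 (SE, n = 3 against 3, limma adjusted p = 1.19e-07). It had the smallest standard error and the smallest adjusted p of the 9 genes.

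The galectin genes Lgals1, Lgals3 and Lgals9 were all higher after cisplatin, by different amounts. Lgals1 (ENSMUSG00000068220, chromosome 15, 78926725 to 78930465), whose product can trigger the death of activated T cells, stood at 776, 766 and 774 FPKM in control replicates 1, 2 and 3, and at 1019, 1029 and 898 FPKM in cisplatin replicates 1, 2 and 3. The cisplatin libraries were higher but wider, with a coefficient of variation of 7.42% against 0.707% in control. The mean rose 1.27-fold, from 772 ± 5.46 to 982 ± 72.9 FPKM, a log2 change of 0.34 ± 0.0570 (SE, n = 3 against 3, limma adjusted p = 0.000859). Under quantile normalization Lgals1 was no longer called (log2 change 0.06, limma adjusted p = 0.256).

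Lgals3 (ENSMUSG00000050335, chromosome 14, 47373860 to 47386167) encodes galectin-3, the chimera-type galectin, which also binds LAG-3. It stood at 30.2, 27.4 and 27.6 FPKM in control replicates 1, 2 and 3, and at 63.9, 62.1 and 67.7 FPKM in cisplatin replicates 1, 2 and 3, with no overlap. The mean rose 2.27-fold, from 28.4 ± 1.58 to 64.6 ± 2.87 FPKM, a log2 change of 1.16 ± 0.0508 (SE, n = 3 against 3, limma adjusted p = 8.72e-07). Lgals9 (ENSMUSG00000001123, chromosome 11, 78962979 to 78984924) encodes galectin-9, a ligand of TIM-3. It stood at 32.7, 32.2 and 32.6 FPKM in control replicates 1, 2 and 3, and at 63.1, 65.5 and 58.8 FPKM in cisplatin replicates 1, 2 and 3. Here too every cisplatin library was higher than every control library. The mean rose 1.92-fold, from 32.5 ± 0.247 to 62.5 ± 3.38 FPKM, a log2 change of 0.92 ± 0.0434 (SE, n = 3 against 3, limma adjusted p = 1.18e-06).

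FPKM is per length, so the order of levels between genes rests on gene lengths that the sources used here do not give. In control the order was Lgals1, Ptgs2, Lgals9, Lgals3, Cd47, Cd276 and Pvr, with no overlap between neighbours, followed by Cd274 and Pdcd1lg2, whose ranges overlapped at 0. In cisplatin the order was Lgals1, Ptgs2, Lgals3, Lgals9, Cd47, Cd276, Pvr, Pdcd1lg2 and Cd274. Lgals3 and Lgals9 overlapped there, as did Cd276 and Pvr, and the other neighbours did not. Pvr thus stood below Cd276 in FPKM in all control libraries and overlapped its range after cisplatin. In control fragments Pvr was above Cd276, with 2145 against 1303. The lengths implied by the recovered fragments were 6206 bp for Pvr and 1864 bp for Cd276. Even after cisplatin, both PD-1 ligand genes had the lowest levels of the 9.

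An exact two-sided permutation test of 3 against 3 libraries gave p = 0.10 for each of the 8 genes without overlap, the smallest p this design allows, and p = 0.600 for Cd276. Among the 8, Cd274 and Pdcd1lg2 passed the filter only through cisplatin, so their p says nothing more. The authors' deposited table, made with a test that no source used here names, lists log2 fold changes of 1.08 for Ptgs2, 1.01 for Pvr, 1.18 for Lgals3, 0.94 for Lgals9, 0.35 for Lgals1 and -0.57 for Cd47. For these 6 genes the direction is that of the limma values.

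**Figure D3:**
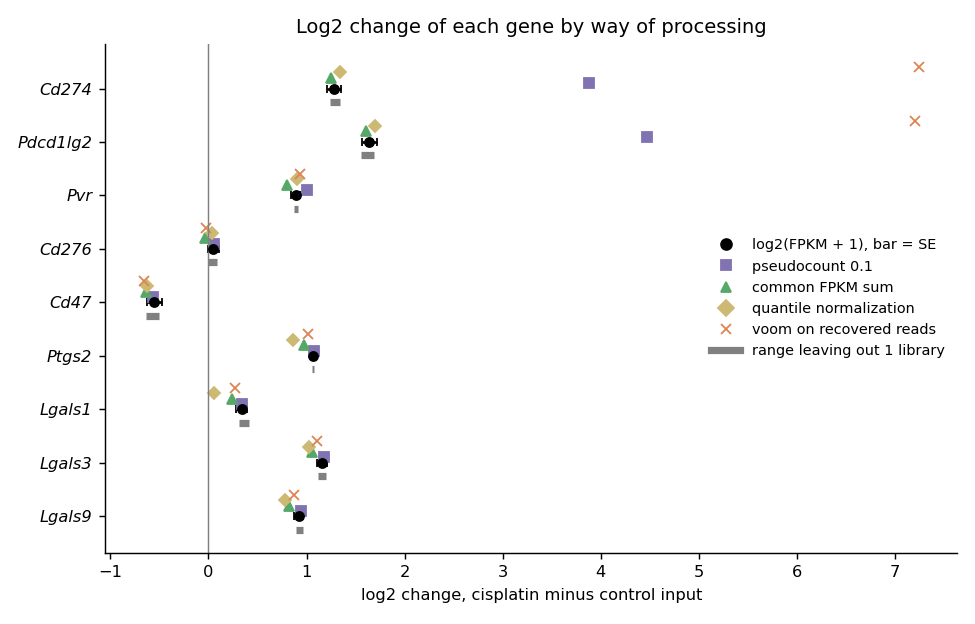
Log2 change (cisplatin minus control input) of 9 genes; black points are log2(FPKM + 1) with SE, other symbols are other ways of processing, and grey bars span the values with 1 library left out. Ranges are narrow for 7 genes beside those of Cd274 (1.24 to 7.24) and Pdcd1lg2 (1.56 to 7.20), which move with the pseudocount and the test; Cd276 lies on both sides of 0.

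Genes whose levels ran most like those of 4 members were sought among 10048 tested protein-coding genes by Pearson's r over the 6 input libraries. Cd274 was closest to Ccdc125 and Cbr1 (r = 0.9999 each) and Gm6020 (0.9998), and Pdcd1lg2 to 6030445D17Rik and Gm29797 (1.0000 each) and Cmc4 (0.9999). Ptgs2 was closest to Plk2 (1.0000), which encodes a stress-induced kinase, then 2610318N02Rik (0.9999) and Abl2 (0.9998). Such values were common, because libraries of a treatment lie together: 821 genes reached r = 0.99 with Cd274, 876 with Pdcd1lg2 and 1231 with Ptgs2. Cd47 had only 40 such genes, led by Pik3ip1 (0.9981), Myef2 (0.9969) and Esco1 (0.9967). These are descriptions of 6 libraries of 2 treatments.

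Other genes of the same pathways, in 5 lists of 107 genes, changed in both directions. Of the 60 tested, 45 were called, 19 higher and 26 lower (limma, adjusted p at most 0.05). Over all genes tested, 81.3% were called, 40.1% higher and 41.1% lower, and the counts per list below stand against these shares. The median log2 change was -0.07, beside -0.003 over all genes tested. With only genes of at least 5 FPKM in 3 libraries, 11 were higher. Of the 60, 7 passed the filter through 1 treatment alone and so had to differ, and their values are given below with no p: Havcr2, Nectin4, Qpctl, Slc29a2 and Cbr1 through cisplatin, and Mgat5 and Ptges2 through control. Of the other 53, 14 were higher and 24 lower. Of 33 receptors, co-ligands and partners of checkpoints, 11 had values, and 22, among them Pdcd1, Cd80, Cd86, Ctla4 and Lag3, matched no row. Of the 9 tested, 4 were higher and 4 lower, with a median of 0.10.

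Among the partners, Nectin2, which encodes another ligand of TIGIT and DNAM-1, moved opposite to Pvr: 44.5, 44.7 and 43.6 FPKM in control and 22.8, 20.7 and 23.2 FPKM in cisplatin (log2 change -0.96, limma adjusted p = 1.52e-06). Nectin4, whose product also binds TIGIT, was listed at 0 in control and at 1.51, 1.29 and 1.49 FPKM in cisplatin. Qpctl, the enzyme that modifies CD47 so that SIRPα can bind it, went from 0.191 ± 0.0637 to 2.15 ± 0.0133 FPKM. Havcr2, which encodes TIM-3, was listed at 0 in control and at 1.57, 1.71 and 1.70 FPKM in cisplatin. The remaining called partners, named after their values were seen, were Tigit (log2 change 1.48) and the lower Lrp1 (-1.11), Nectin1 (-0.35) and Thbs1 (-0.22). Havcr2 and Tigit encode receptors best known from lymphocytes. Beside them, Cd68, often used as a macrophage marker, rose from 2.41 ± 0.175 to 8.89 ± 1.21 FPKM (log2 change 1.53, limma adjusted p = 4.74e-06), while Ptprc and Cd3e matched no row. The part of leukocyte RNA in these changes was not tested.

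The adenosine list, which surrounds the unmatched Nt5e, had values for 6 of 14 genes. Of the 5 tested, 2 were higher and 2 lower, with a median of -0.02. Among the 2 higher is Slc29a2, which passed the filter through cisplatin alone and so had to differ. Slc29a2, a nucleoside transporter gene, had 2 fragments in control and 449 in cisplatin, where its mean was 2.35 ± 0.0900 FPKM. Slc29a1, the main equilibrative transporter, rose by 0.55 on the log2 scale, from 24.3 ± 0.756 to 36.2 ± 2.31 FPKM (limma adjusted p = 3.83e-05). Enpp1, which releases AMP from extracellular nucleotides, fell from 8.11 ± 0.0922 to 3.99 ± 0.142 FPKM (log2 change -0.87, limma adjusted p = 2.36e-06), and Adk, which removes adenosine inside the cell, fell from 2.92 ± 0.417 to 2.02 ± 0.264 FPKM (log2 change -0.37, limma adjusted p = 0.00997). None of the 4 adenosine receptor genes matched a row.

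In the prostaglandin list 13 of 18 genes had values, and of the 8 tested 2 were higher and 4 lower, with a median of -0.15. These include Cbr1 (higher) and Ptges2 (lower), which passed the filter through 1 treatment alone and so had to differ. While Ptgs2 rose, the constitutive cyclooxygenase gene Ptgs1, named after its values were seen, fell from 44.5 ± 0.749 to 36.9 ± 0.192 FPKM (log2 change -0.26, limma adjusted p = 9.21e-05). Abcc4, an exporter of prostaglandins, fell from 21.6 ± 0.757 to 8.18 ± 0.271 FPKM (log2 change -1.30, limma adjusted p = 3.39e-07). Ptges2, a prostaglandin E synthase gene, had 2.64 ± 0.177 FPKM in control and 0.754 ± 0.0801 FPKM in cisplatin. Pla2g4a, the phospholipase that supplies arachidonic acid to cyclooxygenases, fell from 16.4 ± 0.536 to 10.9 ± 0.652 FPKM (log2 change -0.55, limma adjusted p = 4.06e-05). Cbr1, a carbonyl reductase that acts on prostaglandins, was listed at 0 in control and at 2.36, 1.77 and 2.27 FPKM in cisplatin.

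The list of other galectins and of enzymes that build or cap galectin-binding glycans had values for 13 of 14 genes, and of the 11 tested 2 were higher and 7 lower, with a median of -0.46. St6gal1, which caps galactose with sialic acid, fell from 22.7 ± 0.142 to 7.02 ± 0.410 FPKM (log2 change -1.57, limma adjusted p = 2.06e-07). Mgat5, which makes the branched N-glycans that galectin-3 binds, had 4.12 ± 0.295 FPKM in control and 0.513 ± 0.207 FPKM in cisplatin, and B4galt1, which adds galactose, fell from 71.0 ± 1.64 to 37.9 ± 1.65 FPKM (log2 change -0.89, limma adjusted p = 1e-06). Lgals2 went the other way, from 16.2 ± 1.74 to 53.7 ± 4.54 FPKM (log2 change 1.67, limma adjusted p = 1.98e-06). So 4 of the galectin genes tested, including the 3 members, rose (Lgals1 except under quantile normalization), while Lgals8 was not called. Lgals7 had a log2 change of -0.18 (limma adjusted p = 0.0299) that was no longer called without any 1 of 5 libraries (adjusted p = 0.0604 to 0.0902). Under the filter and not tested were Lgals4, with 135 fragments in control and 0 in cisplatin, and the galectin-like Lgalsl, with 0 and 73. Of the 7 glycan enzymes tested 5 were called lower, beside 41.1% of all genes tested. Mgat5, which passed the filter through control alone and so had to differ, is among the 5. Man1a was called higher (log2 change 0.44), and the other enzyme was not called. Lgals4, Lgals7, Lgals8, Lgalsl and Man1a were named after their values were seen.

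Of 28 genes known to control PD-L1 transcription or protein stability, 27 were tested, 9 of them higher, 9 lower and 9 not called, with a median of -0.01. Jun, an AP-1 subunit, went from 54.7 ± 1.95 to 244 ± 9.45 FPKM (log2 change 2.14, limma adjusted p = 6.31e-08). Myc went from 35.7 ± 0.995 to 167 ± 16.2 FPKM (log2 change 2.19, limma adjusted p = 2.28e-07). Hif1a, the hypoxia factor, fell from 69.8 ± 2.67 to 34.9 ± 1.90 FPKM (log2 change -0.98, limma adjusted p = 1.45e-06), and Nfkb1 from 14.4 ± 0.169 to 7.09 ± 0.347 FPKM (log2 change -0.93, limma adjusted p = 1.56e-06). Irf1, an interferon factor gene, and Cmtm6 were named after their values were seen. Irf1 was not called (15.5 ± 0.594 FPKM in cisplatin, log2 change -0.04), and neither was Cmtm6 (log2 change -0.08), which keeps PD-L1 protein from degradation. With a common FPKM sum, Irf1 (log2 change -0.14, limma adjusted p = 0.0180) and Cmtm6 (-0.17, limma adjusted p = 0.0294) were called lower.

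**Figure D4:**
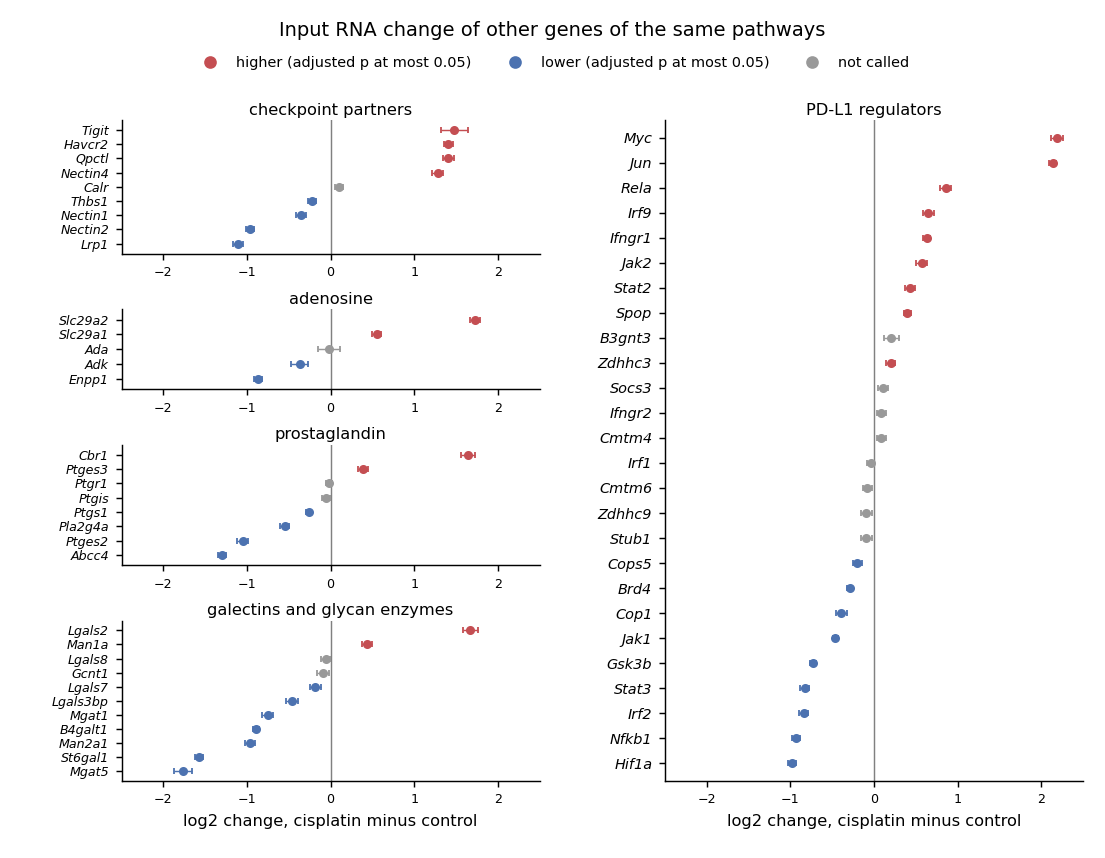
Log2 change (cisplatin minus control input) of tested genes of 5 pathway lists, 1 of the 60 left out, with SE bars; red is higher, blue lower and grey not called in limma at an adjusted p of at most 0.05. In each list genes lie on both sides of 0, with 19 higher and 26 lower in all, beside 40.1% and 41.1% of all genes tested.

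The ac4C regions (peaks) of these genes come from a single comparison of all libraries made by the authors, with no value per library, so no replicate error can be given. Fold enrichment is the authors' value, taken here as IP over input, which the file headers do not state. The log2 difference between treatments is theirs too, and its direction is not stated in the file headers. Of the 15 peaks, 8 on 6 genes differed between treatments at an adjusted p of at most 0.05 in the authors' deposited table, 5 with a log2 difference above 0 and 3 below. Over all 19049 peaks the share was 46.2%, with 36.5% above 0 and 9.62% below 0. The median log2 difference was 1.00 on the members and 1.58 over all peaks, and it was above 0 for 11 of the 15 and for 75.8% of all.

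By the authors' annotation, 11 of the 15 peaks were in 3′ UTRs and 4 in coding sequence, against 29.5% and 50.5% of all peaks. The peaks labelled 3′ UTR on Lgals1 and Cd276 each covered 4 exon pieces, the Lgals1 peak from the RefSeq start of the gene. Cd47 alone held 4 of the 11, so the count is of peaks and not of genes. Of the 11, 5 differed between treatments, and 36.2% of the 5614 3′ UTR peaks of the whole table did. Of the 4 coding peaks, 3 differed, and 56.0% of all coding peaks did. Median exonic width was 390 bp on the members and 181 bp over all peaks, and median fold enrichment was 9.72 and 7.05.

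Ptgs2 carried 4 peaks along its length, and 18.4% of genes with a peak had 4 or more. The first, chr1:150100991-150104549, covered 1168 bp of coding exons in 7 pieces, with a low fold enrichment of 2.95, a log2 difference of 1.88 and a log10 adjusted p of -120 in the authors' deposited table. The 3 others were in the 3′ UTR and were far more enriched, at 18.0, 32.9 and 35.3-fold. Of these only the middle one, chr1:150106401-150107359 (959 bp), differed between treatments, by 2.96 on the log2 scale (adjusted p = 6.46e-05 in the authors' deposited table). Its neighbours, chr1:150105653-150106012 and chr1:150107928-150108107, had log2 differences of 0.31 (adjusted p = 0.239) and 1.00 (adjusted p = 0.617) in that deposited table by the authors. The lowest adjusted p thus lay in the widest and least enriched of the 4 peaks, and the largest log2 difference in the 32.9-fold peak.

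The galectin genes had 5 peaks, 4 of them different between treatments. The single Lgals1 peak, chr15:78926725-78930347, spanned 682 exonic bp in 4 pieces, nearly the whole short gene, with a fold enrichment of 7.44. Its log2 difference was -0.97 with a log10 adjusted p of -434 in the authors' deposited table, the lowest value there, which 37 peaks share and which gives them no order. Lgals3 had a pair of coding peaks with opposite signs: chr14:47380111-47381677 at 2.61 (adjusted p = 5.37e-08) and chr14:47384654-47385741 at -1.61 (adjusted p = 2e-51) in the authors' deposited table, with fold enrichments of 2.75 and 3.66. Of the 2033 genes with at least 2 peaks that differed, 766 (37.7%) had both signs. Lgals9 had a 3′ UTR peak, chr11:78963063-78963478, enriched 31.0-fold, with a log2 difference of 2.94 (adjusted p = 5.01e-36), and a coding peak over 6 pieces, chr11:78965747-78969892, with 0.60 (adjusted p = 0.118) in the authors' deposited table.

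Cd47, the gene that fell, had 4 short peaks of 121 to 181 bp, all called 3′ UTR by the authors. The 1 that differed, chr16:49912612-49912792, had the most negative value of the 15, -4.29 (adjusted p = 0.00245 in the authors' deposited table), with a fold enrichment of only 2.75. The others, chr16:49912132-49912282, chr16:49913361-49913511 and chr16:49914680-49914800, had log2 differences of 0.41, 2.32 and -0.32 and adjusted p-values of 0.668, 0.610 and 0.731 in the authors' deposited table. The last 3 along the gene end 289, 1008 and 2297 bases past the RefSeq gene end, so they rest on a longer 3′ end in the authors' annotation.

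Cd276, whose RNA level was not called, had the most enriched of the 15 peaks, 38.8-fold, at chr9:58526067-58530612 (390 exonic bp in 4 pieces, 3′ UTR). Its log2 difference was 1.81 with an adjusted p of 0.0437 in the authors' deposited table, just inside the threshold. The Pvr peak, chr7:19903668-19904175 (508 bp, 3′ UTR, 7.84-fold), had a larger difference of 2.96 but an adjusted p of 0.0646, just outside it. So Cd276 was called in its peak and not in its RNA level, and Pvr the other way round.

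Cd274, Pdcd1lg2 and Nt5e had no peak in the table. Of the 10049 tested protein-coding genes 71.2% had a peak, and of the 1849 with a cisplatin mean of 1 to 3 FPKM, the range of Cd274 and Pdcd1lg2, 52.4% did. The 1849 were not matched on control level, where Cd274 had 1 fragment and Pdcd1lg2 had 0, so 52.4% is not a like comparison. The neighbours Jak2 and Ermp1 had 2 peaks each, Ric1 had 4, and Insl6 and Plgrkt had 1 each.

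**Figure D5:**
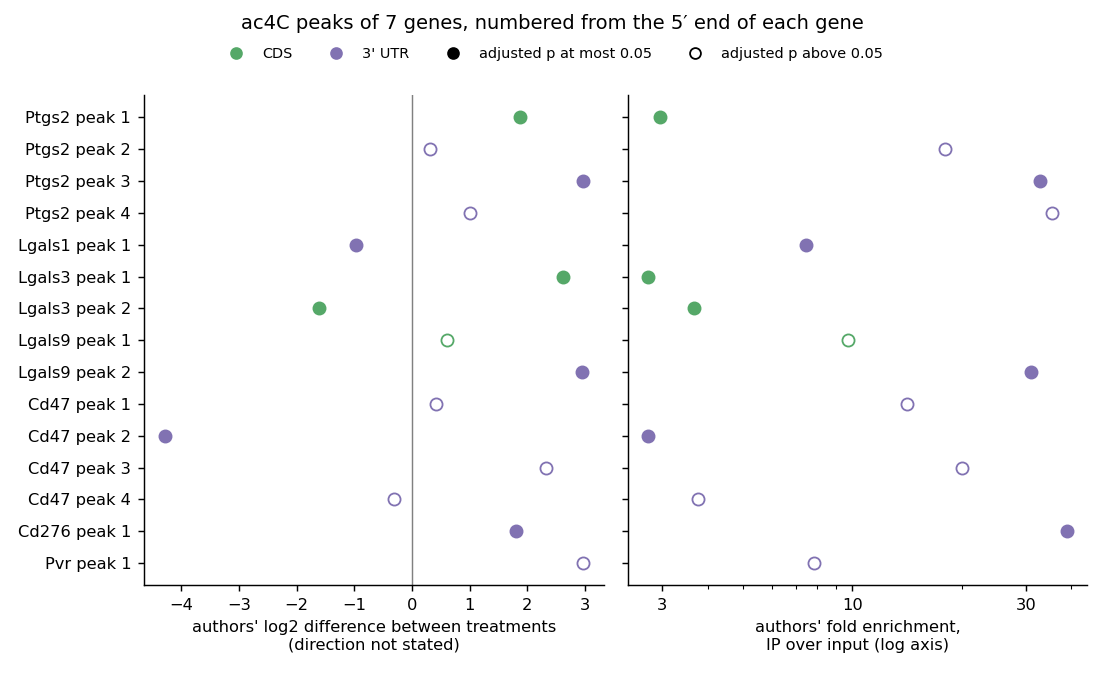
The 15 ac4C peaks of 7 genes, numbered from the 5′ end of each gene, with the authors' log2 difference between treatments (left, direction not stated) and their fold enrichment (right, log axis, taken here as IP over input). Filled symbols have an adjusted p of at most 0.05. Differences run from -4.29 (Cd47) to 2.96 (Ptgs2 and Pvr), and the filled symbols include both weakly and strongly enriched peaks.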

How the data were processed

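The authors deposited a table of FPKM values in the 6 input libraries with their log2 fold change and p-values per gene, and a table of ac4C peaks with a fold enrichment, a log2 difference between treatments and log10 p scores, per the file headers. The headers do not say which libraries form the fold enrichment, which is taken here as IP over input. The tools fastp, FastQC, HISAT2 and HOMER and the build mm10 come from the submitters' processing notes. The counting annotation, strand setting and peak caller: not given in the sources used here. Values from the peak table have no replicates here.

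FPKM values were tested as log2(FPKM + 1) with limma 3.58.1 in R 4.3.3 (lmFit, eBayes with trend) on 11449 genes with at least 1 FPKM in at least 3 libraries, with Benjamini-Hochberg adjustment over all of them. Fragments per gene were recovered as the smallest whole multiples that fit the FPKM steps (14851 of 14852 genes, tolerance 0.0001), so depth and counts are recovered values and may be understated where they share a divisor. Intervals and limits cover counting error only. The scripts were tested on simulated data. Deviations of same-numbered libraries from their group means correlated with r of 0.09747, -0.1162 and 0.04277, so no strong shared deviation was seen. No label says whether the numbers pair the libraries, and low r cannot settle it. Peak coordinates count from 1. RefSeq (GRCm38.p6) gave gene spans and promoters; sequences of peaks and proteins were not used here.

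The members and the gene lists were chosen with earlier results of these data known. Named genes are the members, up to 4 tested genes per list with the smallest adjusted p, the 3 genes most like each of 4 members, the chromosome neighbours and the 2 highest markers per list; other genes are marked as named after their values were seen. The values of 1 gene of the lists are not reported here, though it stays in the counts.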

Additional observations from a re-analysis of the deposited data

How the results depend on the processing

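The 13 alternatives to the limma fit were another pseudocount, other filters, other normalizations, voom, the replicate block and leaving out each library in turn. The count of members called lower was 1 under all of them, and the count called higher was 5 to 7: 5 with a filter at 5 FPKM, which removes Cd274 and Pdcd1lg2, and 6 with quantile normalization, which loses Lgals1. Pathway genes called higher numbered 11 to 23, with 11 at the 5 FPKM filter, where fewer genes are tested, and 23 without a filter; those called lower numbered 21 to 34. Of the 45 pathway genes called, 43 were called in the same direction in every fit that tested them, all but Lgals7 and, named for this change, Zdhhc3 (0.11, adjusted p = 0.113 with a common FPKM sum). Both counts include the genes that passed the filter through 1 treatment alone. Those genes had to differ, so their part in the 43 says nothing about stability. Without them the main fit called 14 higher and 24 lower of 53. The Cd276 change turned to -0.04 with a common FPKM sum and -0.02 with voom and lay between -0.0050 (without cisplatin replicate 1) and 0.09 (without cisplatin replicate 3) with 1 library left out, and the cause was not tested. With the replicate number as a block, 9276 genes were called against 9303, and the member counts (7 higher, 1 lower) and pathway counts (19 and 26) did not move. A common FPKM sum moved the median of all genes to -0.087 and voom to -0.076; 43.6% of calls were then higher with a common sum, against 49.4%. Member peaks that differed numbered 8, or 7 at an adjusted p of 0.01 and 7 with a log2 difference of at least 1 in size. Depth limits Cd274 and Pdcd1lg2 most, which rest on 394 and 265 cisplatin fragments.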

Other observations

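Several pathway genes lay under the filter on low values and were not tested, yet were near 0 in only 1 treatment; they were picked out after their values were seen. Entpd1, which encodes CD39, the enzyme upstream of CD73, had 1 fragment over the control libraries and 395 over the cisplatin libraries (0.937, 1.00 and 0.788 FPKM). Sirpa, the gene of the CD47 receptor, was listed at 0 in control and had 292 fragments in cisplatin (0.587, 0.980 and 0.693 FPKM). Slco2a1, a prostaglandin transporter gene, and Lgalsl, a galectin-like gene, were listed at 0 in control with 157 and 73 fragments in cisplatin.

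Others ran the opposite way. Ptges, the inducible prostaglandin E synthase that works with cyclooxygenase-2, had 85 fragments in control (0.383, 0.200 and 0.388 FPKM) and 1 in cisplatin. Ptgds, the prostaglandin D synthase gene, had 103 and 0 fragments, Lgals4 135 and 0, and Fgl1, a LAG-3 ligand gene, 84 and 0.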
